A study of Drosophila melanogaster with 20 samples.

Results

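The fly genes for ATP-binding cassette (ABC) transporters were followed over whole brain, neurons, all glia and surface glia of adult Drosophila melanogaster. The 45 names considered stand for 44 genes, since CG10441 is a former name of CG31793. A probe set annotated with a single gene symbol was found for 39 of them, 43 probe sets in all, out of 11981 genes and 18769 probe sets tested. Pmp70, CG2316, pix, CG7955 and a further ABCC gene, 5 in all, had no such probe set and were not analysed here. Whole brains were dissected from wild-type Canton S flies, 5 brains per replicate. Neurons (ELAV-GFP), all glia (REPO-GFP) and surface glia (9.137-GFP) were sorted by green fluorescence from 10 to 15 pooled brains per replicate, after dissociation at 37 °C. Neurons were shaken at 1000 rpm and both glial sorts at 500 rpm, for 20 min except in surface glia, which had 5 min. Each group had 5 arrays, and males and females were pooled in every sample. Line, sorting and dissociation differed between the groups, so they cannot be told apart from cell type.

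ABC transporters use the energy of ATP hydrolysis to move drugs, lipids, pigment precursors, conjugates or peptides across membranes. Full transporters carry both pairs of membrane and nucleotide-binding domains in a single protein, whereas shorter members carry a single set and join with a partner. The surface glia, made of perineurial and subperineurial cells, form the barrier between the hemolymph and the fly brain, and the P-glycoprotein-like pump Mdr65 is known there for keeping drugs out of the brain. In mammals the ABCB, ABCC and ABCG families hold the drug efflux pumps of the brain's blood vessels, the ABCA family holds lipid transporters, and ABCF proteins have no membrane domain and act in translation.

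Values are log2 probe set values, and a gene is compared only with itself over groups, since probe sets differ in their response. Calls, higher or lower, came from a limma fit of all 20 arrays and needed an adjusted p (Benjamini-Hochberg) below 0.05 together with a change of 1 or more in log2. A group is described as within the controls for a gene when none of its 5 arrays exceeded the 95th percentile of 44 bacterial and tag control probe sets on the same array. That percentile averaged 3.72 (whole brain), 4.39 (neurons), 5.15 (all glia) and 5.23 (surface glia), so the level below which a gene cannot be seen was higher in the glial sorts. Arrays of a group correlated at 0.993 to 0.997 for whole brain and 0.966 to 0.978 for neurons, and less closely for all glia (0.763 to 0.937) and surface glia (0.781 to 0.896). All glia 4 and surface glia 4 lay farthest from their groups. The summed level of 9 neuronal marker genes was 15.5 to 15.7 (log2) in neurons, 15.2 to 15.6 in all glia and 14.01 to 15.3 in surface glia. Of these 9 genes 0 were called lower in all glia than in neurons and 7 in surface glia. Of 5 astrocyte-like glia genes, 4 were lower in all glia than in whole brain. Among them alrm averaged 5.38 in all glia and 11.56 in whole brain, and Gat was within the controls in both glial sorts. The label all glia is kept as the name of the sort, and these markers do not bear out a sort of all glial types free of neuronal RNA. Surface glia held neuronal RNA as well, with that sum at 15.3 and 15.1 on arrays 1 and 2 and 14.01 to 14.5 on the others. The part of these markers in the results for either glial sort was not tested. For the eIF-4a transcript the 3′ probe set exceeded the 5′ one by 2.25 in whole brain and by 4.06 to 4.96 in the sorts, a measure of RNA quality. Of the 39 genes, 11 exceeded the controls on all 20 arrays, and CG10505, CG1801 and CG31792 lay within the controls in all 4 groups. The sorts hold pooled RNA of many cells, so a share of cells expressing a gene and the RNA per cell cannot be told apart.

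Against neurons, surface glia had more RNA of P-glycoprotein genes and of several ABCG genes. Mdr65, CG10226 and Mdr49 rose by 8.22, 6.42 and 5.07, and CG5789 and CG31689 by 4.09 and 3.13. In all, 12 of the 39 genes were called higher and 1, CG3156, was called lower (−2.00, SE 0.43, adjusted p = 0.00209). Among all genes 12.1% were called higher and 16.3% lower. The median difference of the 39 genes was 0.64, that of all genes 0.30 and that of the controls 0.66, and 6 of the 44 controls were called higher. After quantile normalization 11 were higher and 3 lower, where 1184 and 1356 of all 11981 genes were. Median centring of the arrays gave 12 higher and 3 lower, and 1034 and 2139 among all genes.

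Against whole brain, 16 genes were higher in surface glia and 5 lower, where 29.1% of all genes were called higher and 20.8% lower. Mdr49 rose by 3.65, CG10226 by 2.97, Mdr65 by 2.92, CG5789 by 2.50 and Sur by 2.38. CG3156, CG9330 and the transporter gene Atet fell by 2.17, 1.87 and 1.85. The controls themselves were higher by a median of 1.18, with 32 of 44 called higher, and 3 of the 16 higher genes (CG31792, CG11069 and CG10505) lay within the controls in both groups. After quantile normalization 9 were higher and 4 lower, where 1607 and 1751 of all 11981 genes were. CG10505, CG11069, CG31121, CG31792, CG34120, CG9664, Mdr50 and Atet were no longer called. The 39 genes had a median difference of 0.79, and all genes 0.21.

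Against all glia, 5 genes were higher in surface glia and 1 was lower, where 3.05% of all genes were called higher and 2.38% lower. CG10226 was higher by 2.31 (SE 0.42, adjusted p = 0.00296), Sur by 1.92, CG31689 by 1.60, Mdr65 by 1.57 and E23 by 1.52, and CG3156 was lower by 1.49. For Sur and E23 the size is uncertain, since the all glia mean lay under the control percentile. All calls against all glia rest on a spread shared by all 4 groups, which is smaller than that of the glial sorts. With limma fitted to these groups alone, 0 of the 39 genes passed, and among all genes 20 were higher and 4 lower. With a variance of its own for each group again 0 passed, and among all genes 71 were higher and 52 lower. In these limma fits 9 and 7 of the 39 genes had an unadjusted p under 0.05. The share of all genes under that threshold was not taken, so these counts cannot be judged. The median difference was 0.63 over the 39 genes, 0.07 over all genes and 0.10 over the controls, of which 0 were called.

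All glia were above neurons for 6 genes and below for 0, where 3.88% of all genes were called higher and 4.73% lower. These were Mdr65 (6.65), CG10226 (4.10), Mdr49 (3.98), CG5789 (2.53), CG31689 (1.53) and CG9664, which has no size here since its all glia mean lay under the control percentile. The calls of CG5789 and CG9664 were lost after quantile normalization, and in 3 and 7 of the 20 fits without an array. Those for CG5789 left out neurons 2, 4 or 5. Against whole brain, all glia were higher for 7 genes and lower for 6, where 20.7% of all genes were called higher and 15.8% lower. Mdr49 (2.55) and Mdr65 (1.35) were among the higher, and Atet (−2.61), CG9330 (−1.86) and E23 (−1.64) among the lower. The size for E23 is uncertain, since its all glia mean lay under the control percentile. The controls rose by a median of 1.12, with 28 of 44 called higher, and 3 of the 7 higher genes (CG31792, CG8908 and CG11069) lay within the controls in both groups. These 3 and CG31121 were no longer called after quantile normalization. Neurons were lower than whole brain for 7 genes and higher for 1, Mdr50, where 10.5% of all genes were called lower and 3.46% higher. With only these groups in the fit 12 were lower and 2 higher, where 1549 and 780 of all 11981 genes were. Both glial sorts were above neurons for 6 of the 39 genes, where 3.16% of all genes were. Comparisons that have a group in common share its 5 arrays and are not independent.

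The group with the highest mean was surface glia for 21 of the 39 genes, whole brain for 7, neurons for 6 and all glia for 5. Over all genes these shares were 38.2% for surface glia, 27.1% for whole brain, 20.7% for neurons and 14% for all glia. Arrays of surface glia did not overlap those of neurons for 13 of the 39 genes (30.2% of all genes), those of whole brain for 22 (53.6%) and those of all glia for 4 (2.97%). Arrays of all glia did not overlap those of neurons for 8 genes (18.2% of all genes) or those of whole brain for 15 (49.5%), and neurons were apart from whole brain for 22 (49.2%). CG10226, Sur, MRP and E23 were the 4 genes apart between the glial sorts.

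**Figure D1:**
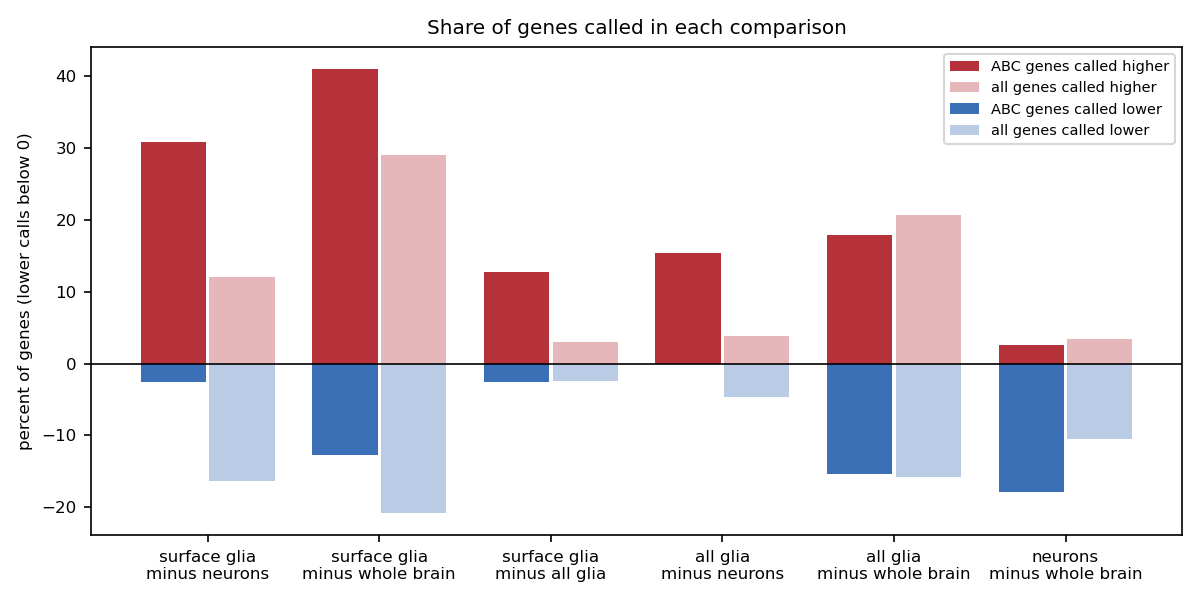
Percent of the 39 ABC transporter genes (full colour) and of all 11981 genes (pale) called higher (above 0) or lower (below 0) in each of the 6 comparisons. In surface glia against neurons 12 of 39 ABC genes were called higher, where 12.1% of all genes were.

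Mdr65, the marker of the group and a full ABCB transporter, had a different level in each group. Its 5 arrays in replicate order read 9.10, 9.54, 9.73, 10.11 and 9.59 in whole brain and 4.51, 3.90, 4.37, 4.48 and 4.31 in neurons. They read 12.03, 10.88, 10.50, 10.38 and 11.05 in all glia and 12.67, 12.50, 12.97, 12.54 and 12.01 in surface glia. Only the glial groups overlapped, through all glia 1 at 12.03. The order from low to high was neurons, whole brain, all glia and surface glia, and each step was called. Surface glia were above neurons by 8.22 (SE 0.28, adjusted p = 6.44e-14, limma), above whole brain by 2.92 (SE 0.28, adjusted p = 2.16e-07) and above all glia by 1.57 (SE 0.28, adjusted p = 0.00221). In neurons 2 of 5 arrays exceeded the controls and the mean lay under their percentile, so the size of the difference from neurons is uncertain. The last step was not called when only these groups were fitted (adjusted p = 0.105) or each group had its own variance (adjusted p = 0.170). An exact permutation test of that step over the 10 arrays, two-sided and added after the values were seen, gave an unadjusted p of 0.0159, where the smallest possible is 0.00794.

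CG10226, the gene beside Mdr65 on the chromosome and a full ABCB transporter as well, followed it. It read 7.84, 8.78, 8.67, 8.92 and 8.70 in whole brain and 5.26, 5.03, 4.92, 5.21 and 5.28 in neurons. All glia gave 10.58, 9.68, 9.91, 7.33 and 8.72, and surface glia 11.36, 11.57, 12.21, 11.63 and 11.01. All 5 surface glia arrays lay above every array of each other group, and all glia and whole brain overlapped, with a difference of 0.66 (SE 0.42, adjusted p = 0.195, limma) that was not called. The differences of surface glia were 6.42 from neurons (SE 0.42, adjusted p = 1.55e-09) and 2.97 from whole brain (adjusted p = 1.88e-05).

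Mdr49, a full ABCB transporter known in the fly embryo for exporting a germ cell attractant, was high in both glial sorts. Its arrays read 6.11, 7.05, 7.41, 6.83 and 6.40 in whole brain and 4.84, 5.27, 5.00, 5.50 and 6.05 in neurons. All glia gave 9.74, 9.55, 10.08, 7.73 and 9.44, and surface glia 10.72, 10.41, 10.64, 11.12 and 9.14. Both glial sorts lay above whole brain and neurons on every array, and all glia 4 was the lowest of them. Surface glia exceeded neurons by 5.07 (SE 0.41, adjusted p = 3.19e-08, limma) and whole brain by 3.65 (SE 0.41, adjusted p = 1.89e-06), while the 1.10 over all glia was not called (adjusted p = 0.143). The fourth full ABCB gene, Mdr50, was within the controls in whole brain and all glia. It was above them on 2 neuron arrays (5.54 and 7.15, the others 3.57 to 3.93) and 1 surface glia array. It was called above whole brain by at least 1.10 in neurons, and in surface glia with no size, since the mean there lay under the control percentile. Both calls were lost after quantile normalization, and the bound in neurons rests on the 2 neuron arrays above the controls.

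**Figure D2:**
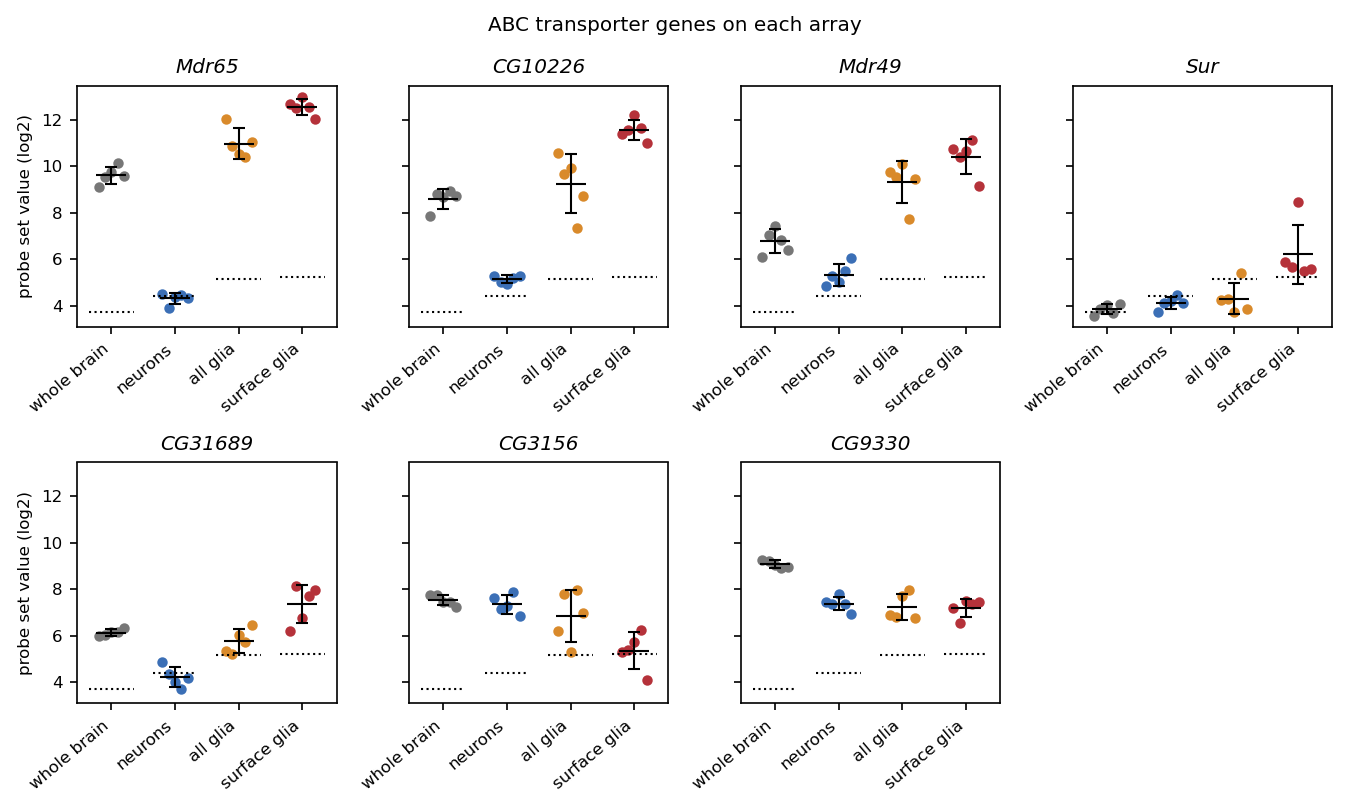
Log2 value of 7 ABC transporter genes on each array (points), with the mean and SD of the 5 arrays of a group (black) and the mean control percentile of that group (dotted). Mdr65 was at 12.01 to 12.97 in surface glia and 3.90 to 4.51 in neurons, and CG3156 was lowest in surface glia.

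Among the 9 measured ABCC genes, whose mammalian relatives export conjugates or regulate ion channels, Sur and CG5789 exceeded the neuron level in surface glia and 0 were called lower, where 12.1% of all genes were higher and 16.3% lower. Sur, the fly relative of the sulfonylurea receptor, read 3.57, 3.84, 4.01, 3.70 and 4.09 in whole brain and 3.73, 4.12, 4.19, 4.44 and 4.12 in neurons. It read 4.23, 4.30, 3.71, 5.39 and 3.87 in all glia and 5.89, 5.66, 8.47, 5.49 and 5.58 in surface glia. The surface glia arrays lay above all others, with surface glia 3 far above the rest. Sur was within the controls in neurons and all glia, so surface glia were higher by at least 1.82 (adjusted p = 0.00171, limma) and at least 1.07 (adjusted p = 0.0134), and by 2.38 over whole brain (SE 0.44, adjusted p = 0.000169). On surface glia 4 its value did not exceed the controls. Surface glia 3 also had the highest summed level of 9 muscle genes, 14.9 (log2) against 8.61 to 10.9 on the other surface glia arrays and 8.34 to 9.50 in all glia, and the part of muscle RNA in the Sur values was not tested. Without that array the difference from all glia was still called, but the bound went from 1.07 to 0.51, and that against neurons from 1.82 to 1.26.

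CG5789, named Cftr in the RefSeq gene table, averaged 5.05 ± 0.26 (SD, n = 5) in whole brain and 3.46 ± 1.17 in neurons. Its mean was 5.99 ± 1.94 for all glia and 7.55 ± 0.92 for surface glia. It was above neurons by 4.09 (SE 0.72, adjusted p = 0.00042, limma) and above whole brain by 2.50 (adjusted p = 0.00531), while the 1.56 over all glia was not called (adjusted p = 0.255). Its size against neurons is uncertain, since the neuron mean lay under the control percentile. MRP, the multidrug resistance-associated protein gene, averaged 9.72 ± 0.11 in whole brain and 10.70 ± 0.11 in neurons, against 9.99 ± 1.41 for all glia and 11.34 ± 0.21 for surface glia. Every surface glia array exceeded every array of the other groups for MRP. Only the difference of 1.62 from whole brain was called (SE 0.43, adjusted p = 0.00308), and not those of 0.64 from neurons and 1.35 from all glia (adjusted p = 0.209 and 0.0773). The all glia 4 array was low, at 7.53 against 10.05 to 10.87 on the others. Without that array neither of these differences was called, and that from all glia was called after quantile normalization. CG7627, CG7806, CG9270 and CG31793 were called in 0 of the 6 comparisons, and the calls of CG31792 and CG10505 against whole brain were within the controls.

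Of the 14 ABCG genes, 6 rose in surface glia over neurons and 0 fell, where 12.1% of all genes rose and 16.3% fell. CG31689 read 6.0, 6.01, 6.17, 6.16 and 6.32 in whole brain and 4.88, 4.34, 4.0, 3.71 and 4.18 in neurons. It read 5.34, 5.19, 6.03, 5.74 and 6.47 in all glia and 6.22, 8.12, 6.77, 7.71 and 7.94 in surface glia. Neurons lay below all other groups on every array, and surface glia overlapped whole brain and all glia at their low end. The surface glia differences were 3.13 from neurons (SE 0.33, adjusted p = 1.24e-06, limma), with a neuron mean under the control percentile, 1.22 from whole brain (adjusted p = 0.00354) and 1.60 from all glia (adjusted p = 0.00693). A dimmer probe set of CG31689 lay within the controls in all 4 groups. Mdr65, CG10226, Sur and CG31689 were thus called above each other group in surface glia, 4 of 39 where 1.99% of all genes were. These are 3 comparisons that share the surface glia arrays, and the calls against all glia were lost with group-wise variances.

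E23, an ecdysone-induced gene whose product opposes the response to this steroid, stood at 6.50 ± 0.23 in whole brain and 6.38 ± 0.77 in surface glia, with 4.01 ± 0.33 in neurons and 4.86 ± 0.53 in all glia. It was within the controls in neurons, so surface glia were higher by at least 1.98 (adjusted p = 2.48e-05, limma), and it was lower in neurons than in whole brain by at least 2.11. Surface glia and whole brain differed by −0.12 (SE 0.32, adjusted p = 0.750), and surface glia were above all glia by 1.52 (adjusted p = 0.00737), with 2 of 5 all glia arrays above the controls. CG3164 rose in surface glia over neurons by 2.36 (SE 0.66, adjusted p = 0.00997, limma) and CG9664 by at least 1.28. For CG9664 surface glia 3 read 7.97 and the others 4.11 to 5.84. Without that array its surface glia mean lay under the control percentile of 5.26, which leaves no bound. CG4822 rose by 1.60 (SE 0.43), of uncertain size, since its neuron mean lay under the control percentile. It exceeded the controls on 2 of 5 surface glia arrays, and surface glia 1 read 7.30, the others 4.74 to 5.38. CG5853 rose by 1.29 (SE 0.41), but was not called with only these groups in the fit or without surface glia 5 (0.87). CG5853 was also above whole brain, by 2.12 (SE 0.41, adjusted p = 0.000256).

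Atet, first described as a transporter of the trachea and later tied to ecdysone release, was highest in whole brain. Whole brain had 11.39 ± 0.13 and neurons 9.94 ± 0.20, while all glia had 8.78 ± 1.39 and surface glia 9.54 ± 1.54. Surface glia were not called against neurons (−0.39, adjusted p = 0.592, limma). Neurons lay below whole brain on every array, by 1.45. That fall was not called in the main fit (adjusted p = 0.0894) but was with only these groups fitted. Surface glia and all glia were below whole brain by 1.85 and 2.61 (SE 0.61 each, adjusted p = 0.013 and 0.0016, limma), and only the first was lost after quantile normalization. The eye pigment genes bw and st, whose products pair with White in the pigment cells of the eye, were called in 0 comparisons. They were at 6.0 to 6.58 (bw) and 3.49 to 4.05 (st) over the group means, although a dimmer probe set of bw was higher in surface glia and all glia than in whole brain, by 1.39 and 1.25. CG32091, CG17646 and CG9663 were called nowhere, with SDs of 2.06, 2.16 and 1.20 in surface glia. CG31121 and CG11069 were called higher than whole brain in both glial sorts at levels near or within the controls.

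The 8 ABCA genes, relatives of lipid transporters, showed few differences between the sorts. CG8908 was above neurons by 1.73 in surface glia (SE 0.53, adjusted p = 0.0145, limma), a call lost after quantile normalization and with only these groups in the fit, and above whole brain by at least 2.10. It exceeded the controls on 3 surface glia arrays, and its neuron mean lay under the control percentile. Surface glia 3, the array with the most muscle RNA, read 8.28 and the others 4.55 to 6.57. Without it the difference from neurons was 1.11, and the surface glia mean of 5.21 lay under the control percentile of 5.26, which leaves no bound against whole brain. CG34120, named ldd in the RefSeq gene table, was above whole brain by 1.42 in surface glia and 1.53 in all glia (SE 0.29 each). Eato, known from engulfment in the fly ovary, was at 7.33 ± 0.25 in whole brain and 6.09 ± 0.43 in all glia, a fall of 1.24 (SE 0.34, adjusted p = 0.00454) that was lost after quantile normalization. CG31213 was highest in whole brain, at 6.16 ± 0.09, and lower in neurons by 1.23 (SE 0.38) and in surface glia by at least 0.94. The neuron call was lost after quantile normalization and in 5 of the 20 fits without an array. CG6052 was at 5.01 in whole brain and within the controls in surface glia, where the control percentile of 5.23 allows no size. CG1718, named Abca3 in the RefSeq gene table, was at 8.37 to 9.61 over the group means and called in 0 comparisons, as were CG1494 and CG1801.

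The single measured ABCB gene of the shorter kind, CG3156, a relative of transporters of the mitochondrial inner membrane, was lowest in surface glia. It read 7.73, 7.75, 7.44, 7.43 and 7.25 in whole brain and 7.61, 7.14, 7.26, 7.87 and 6.86 in neurons. It read 6.21, 7.77, 5.28, 7.94 and 6.98 in all glia and 5.28, 5.39, 5.74, 6.23 and 4.11 in surface glia. Surface glia did not overlap whole brain or neurons but did overlap all glia. The difference from whole brain was −2.17 (SE 0.43, adjusted p = 0.000299, limma), and that from all glia, −1.49, passed narrowly (adjusted p = 0.0496) and was lost in 17 of 20 fits that left out an array. Of the 3 ABCF genes, CG9330 was lower in every sort than in whole brain. It read 9.27, 9.22, 9.04, 8.92 and 8.95 in whole brain and 7.45, 7.37, 7.77, 7.34 and 6.95 in neurons. It read 6.88, 6.81, 7.72, 7.94 and 6.76 in all glia and 7.19, 6.55, 7.51, 7.34 and 7.44 in surface glia. The falls from whole brain were 1.70 for neurons, 1.86 for all glia and 1.87 for surface glia (SE 0.25 each), and the 3 sorts overlapped one another. CG9281, at group means of 10.81 to 11.96, and CG1703, at 5.76 to 6.64, were called in 0 comparisons.

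**Figure D3:**
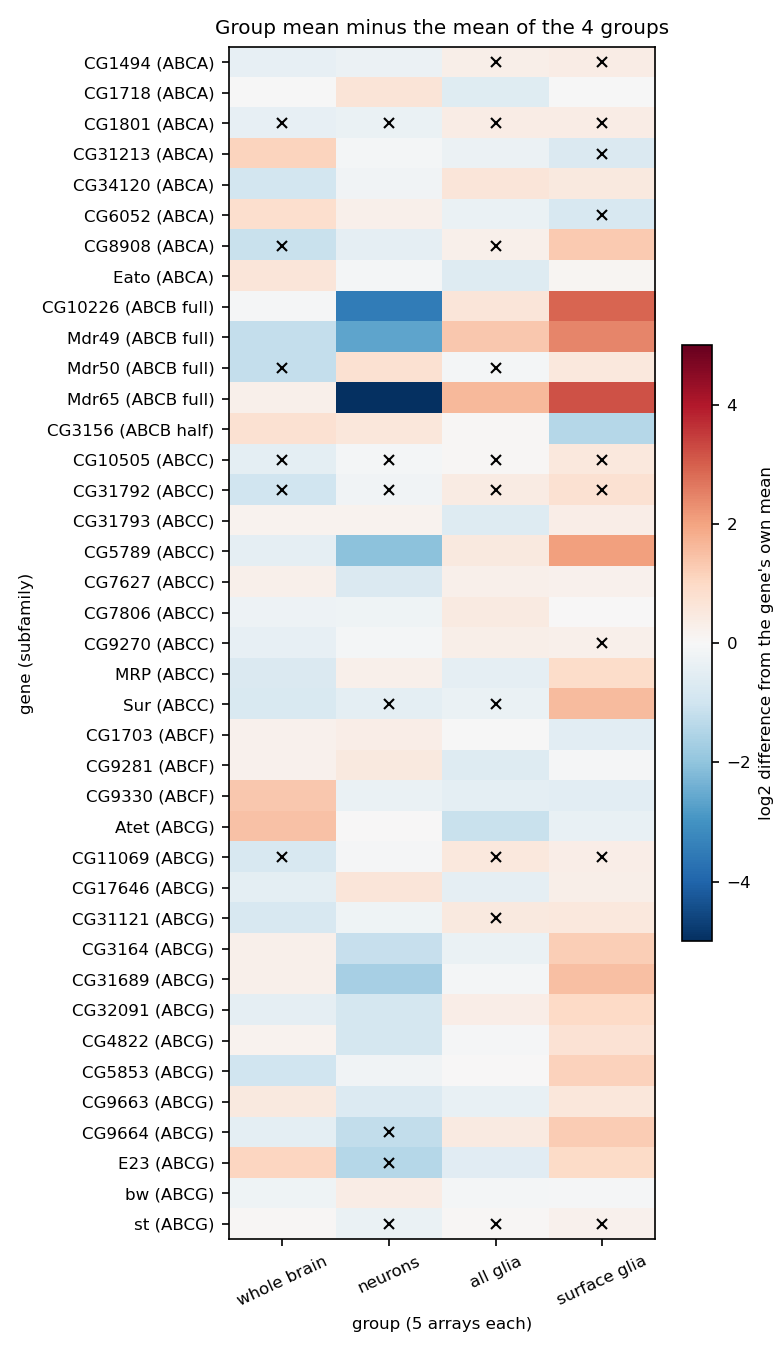
Mean of each group minus the mean of the 4 groups for each of the 39 genes (log2, red higher, blue lower), ordered by subfamily, with a cross where no array of the group exceeded the controls. The strongest contrast is that of Mdr65, CG10226 and Mdr49 between neurons and surface glia.

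Several of the genes are neighbours with 0 coding genes between them in the RefSeq gene order: CG10226 and Mdr65, CG4822 and CG3164, CG9664 and CG9663, CG31792 and CG31793, CG31121 and CG11069, and the run CG1494, CG1718 and CG1801. In surface glia against neurons CG4822 and CG3164 were both called higher, by 1.60 (of uncertain size, as above) and 2.36, as were CG10226 and Mdr65. CG9664 was called and CG9663 was not (1.27, SE 0.55, adjusted p = 0.062, limma). In the run of ABCA genes CG1718 was above the controls on 19 of 20 arrays while CG1801 was within them on all. Probe sets with the suffix s, which can match more than 1 transcript or gene, were those of Atet, CG4822, CG9664, CG17646, CG31121, CG9281 and CG31689.

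**Figure D4:**
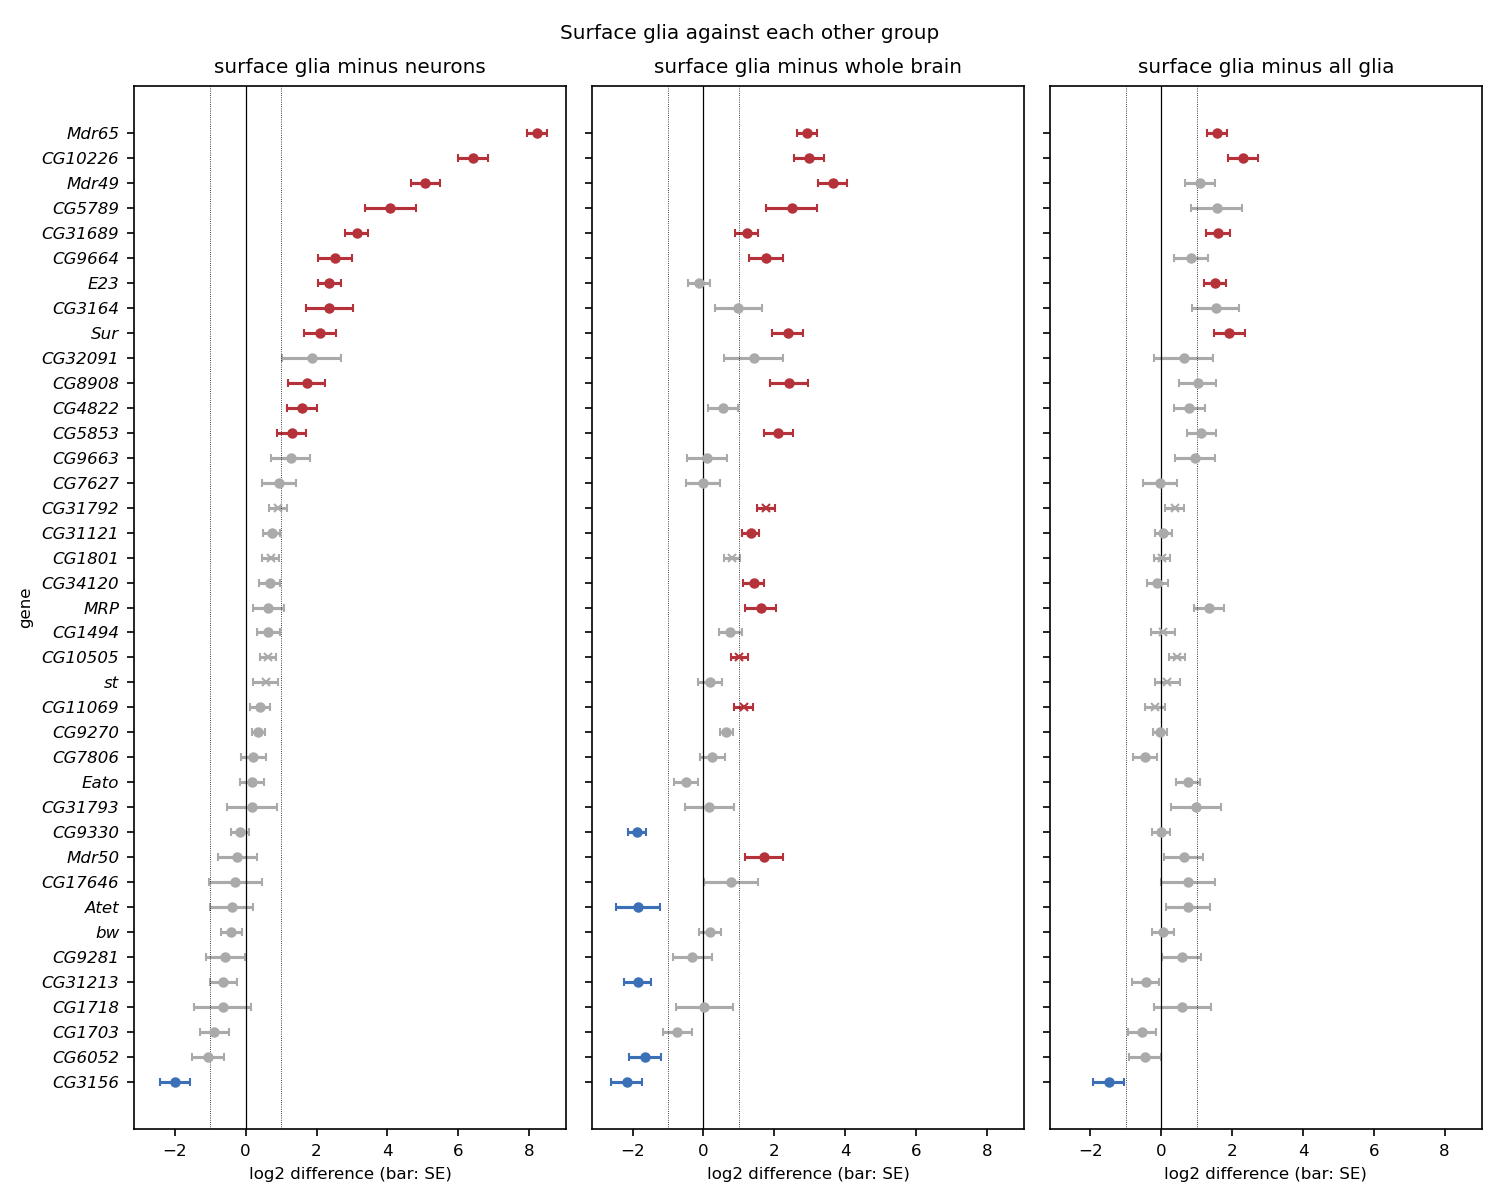
Log2 difference of surface glia from neurons, whole brain and all glia for each of the 39 genes, with its SE (bars), called genes in red (higher) or blue (lower), others in grey, and crosses where both groups lay within the controls. Dotted lines mark differences of 1. Mdr65 lies at 8.22, 2.92 and 1.57 in the 3 panels.

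Of 8 further measured ABC genes, 3 rose in surface glia over neurons and 1 fell, beside 12.1% and 16.3% of all genes. CG14709 rose by at least 2.17 (adjusted p = 2.09e-06, limma), CG9990 by at least 1.28 and CG11897 by 1.49, and CG11147 fell by 2.12. CG14709 was also above all glia, by at least 1.42 (adjusted p = 0.00142). The genes named here were chosen after their values were seen. Of 24 genes that handle foreign compounds (regulators, cytochrome P450, glutathione transferase and organic anion transporter genes), 10 were higher than in neurons and 1 was lower, beside 12.1% and 16.3% of all genes. Against whole brain 7 were higher and 3 lower, which is no more than the 29.1% and 20.8% of all genes. Against all glia 4 were higher and 0 lower, beside 3.05% and 2.38%. The glutathione transferase gene GstE7 was above whole brain by 3.79 and above all glia by at least 3.04, and the organic anion transporter gene Oatp74D was above them by 4.42 and 2.63.

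Of 12 genes of surface glia and their barrier, Mdr65 among them, all 12 rose in surface glia over neurons. The barrier gene Gli, counted among the 12, was within the controls in surface glia and neurons alike. Of 7 pan-glial genes, 6 rose over neurons and 0 fell. Against whole brain 8 of the 12 barrier genes rose and 2 fell, and 1 pan-glial gene rose and 1 fell. Against all glia 7 barrier genes and 3 pan-glial genes rose and 0 fell. Markers of other cell types also moved with surface glia, where 12.1% of all genes were higher than in neurons and 29.1% higher than in whole brain. Of 7 fat body genes, 3 were higher and 0 lower than in neurons and 5 and 1 against whole brain, with a summed level of 13.0 to 14.3 (log2) in surface glia, 11.5 to 12.3 in all glia, 11.2 to 11.8 in whole brain and 9.81 to 10.2 in neurons. The rises over neurons were of the yolk protein genes Yp1 and Yp2 and of Lsp2, whose surface glia mean lay under the control percentile, while Fbp1 and Fbp2 lay within the controls in surface glia. Of 9 hemocyte genes, 5 were higher and 0 lower than in neurons and likewise against whole brain, with summed levels of 10.8 to 11.8 in surface glia and 10.6 to 11.1 in neurons, and He within the controls. Of 9 muscle genes, 4 were higher than in neurons, 6 higher than in whole brain and 0 lower, with summed levels of 8.61 to 14.9 in surface glia and 8.21 to 9.83 in neurons. Of 5 trachea genes, 5 were higher than in whole brain in surface glia and 3 in all glia, where 20.7% of all genes were higher. Against neurons 0 were called, and summed levels were 7.69 to 8.49 in surface glia and 6.59 to 6.87 in whole brain. The median rise of these 5 over whole brain, 1.30 in surface glia and 1.33 in all glia, was near that of the controls (1.18 and 1.12). Of 5 photoreceptor and retina genes, 2 were higher than in neurons and 2 higher than in whole brain, with chp and trpl within the controls in surface glia. Their part in the ABC transporter results was not tested.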

How the data were processed

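Total RNA of 20 samples was amplified, labelled with biotin and hybridised to Affymetrix arrays with 1 colour, per the labels' protocols. The deposited values are log2 probe set values, made by the authors with RMA and the affy and limma packages, per the submitters' processing notes; versions and build are not given in the sources used here. Array medians of the deposited values ran from 5.61 to 6.10, so the arrays did not share a single distribution. Control probe sets (183) were left out of the fits. Genes were named from the platform annotation through probe sets with 1 symbol (13646 probe sets), not those with several (402) or none (4721), and a gene was represented by its probe set with the highest mean. limma 3.58.1 in R 4.3.3 was fitted to 18769 probe sets with a mean per group, lmFit and eBayes, and p-values were adjusted by Benjamini-Hochberg over all of them. A bound sets the mean control percentile in place of a group within the controls, and none is given where the other group's mean lay under its own percentile. The number of arrays limits the precision, and replicates are separate samples of pooled brains, so a p-value reflects only how far such samples scatter, which may be technical. The genes and lists were chosen with earlier results of these data known. Values on each array are given for Mdr65 and for the 3 members with the largest called rise and the 2 with the largest called fall in surface glia against each other group and in all glia against neurons. Alternatives were further normalization, a filter on dim probe sets, other fits, probe set medians, the replicate block and arrays left out. Correlations of same-numbered samples' deviations ran from −0.02 to 0.38, and those of other pairs from −0.37 to 0.27. The highest was of same-numbered samples of surface glia and all glia. These values do not settle whether numbers pair samples, and the main fit did not pair them. No genome or sequence table was used here.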

Additional observations from a re-analysis of the deposited data

Results flagged for a closer look

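Over 156 groups of 5 arrays, 16 held an array far from the other 4 by Dixon's test, and chance gives about 1 in 20. These groups share the same 20 arrays and are not independent. The share over all genes is not given here, so the count cannot be judged as particular to the ABC genes. Of the 16, 9 were in all glia, 5 in surface glia, 1 in whole brain and 1 in neurons. All glia 4 was the lowest array for Atet (6.35, others 8.98 to 9.67), CG1718 (4.44, others 8.28 to 9.80), Mdr49 (7.73, others 9.44 to 10.08) and MRP (7.53, others 10.05 to 10.87). The same array was the highest for CG31121 (5.89), CG31213 (6.54), CG34120 (6.83) and st (4.69). Its control percentile was 6.08, so CG31121 and st did not exceed the controls there. All glia 2 was lowest for CG9664, at 3.61. In surface glia, array 3 was highest for Sur (8.47, others 5.49 to 5.89) and lowest for CG6052 (3.03). Array 4 was highest for CG10505 (4.38, under its control percentile of 6.05), array 1 for CG4822 (7.30, others 4.74 to 5.38) and array 5 for Mdr50 (5.89). Whole brain 1 was lowest for CG10226, at 7.84 with the others at 8.67 to 8.92. Neurons 4 was lowest for CG7806, at 6.34 with the others at 7.28 to 7.58.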

How the results depend on the processing

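After further quantile normalization 13 rather than 21 ABC genes were called between surface glia and whole brain, and 28% rather than 49.9% of all genes. With only the compared groups in the fit, and again with group variances allowed to differ, 0 were called between surface glia and all glia and 14 between neurons and whole brain, and 0 were called in surface glia against each other group. Of all genes, 0.2% and 1.03% were called in these fits between surface glia and all glia, and 19.4% and 19.6% between neurons and whole brain. Mdr65 in surface glia against all glia stayed at 1.57 with adjusted p = 0.105 and 0.170 (limma). With an array left out, the calls numbered 13 to 16 (surface glia against neurons), 19 to 22 (whole brain) and 5 to 7 (all glia), 4 to 6 and 11 to 14 for all glia against neurons and whole brain, and 6 to 9 for neurons against whole brain. Genes above each other group numbered 4 to 5, and Mdr65 differed by 8.12 to 8.36, 2.80 to 3.06 and 1.42 to 1.84. Shares of all genes in the fits without an array are not given here, so these ranges cannot be judged. The replicate block gave 13, 21, 6, 6, 13 and 9 calls in the 6 comparisons and left all 64 called differences in place. Of all genes it called 29.1%, 50.2%, 5.46%, 10.4%, 36.9% and 14.3%. None of the 64 reversed in any setting. After quantile normalization 19 were lost, with only the compared groups 8, with group variances 7 and without all glia 4 and surface glia 4 3. Losses among all genes are not given here, so these may not be particular to the ABC genes. The filter on dim probe sets kept 30 of the 39 genes and all 52 of their called differences. Quantile normalization moved the median of all genes by −0.18 in surface glia against neurons, and median centring by −0.14. Control levels limit what can be seen of 9 genes in surface glia and 10 in all glia.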
